A study of Mus musculus with 40 samples.

Results

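Blood microRNAs of mice at 15 months were compared with those at 13.5 months. The comparison used 10 libraries per age, 20 of the 40 in the series, which also holds libraries of 12 and 16.5 months. All were small RNA libraries of total blood from male wild-type C57B/6J mice, housed singly and bled from the retro-orbital sinus every 6 weeks. The study asked which circulating microRNAs change while the animals age, and at both ages blood was drawn on the day after a memory test in a water maze. It kept an untrained home-cage group as well, and the labels do not say to which group a library belongs. Age, the number of earlier tests and the number of earlier bleedings rise together and cannot be told apart. MicroRNAs with more than 100 reads in at least 20 of the 40 libraries were tested, which gave 103 of the 1915 rows of the count table once the identical rows of miR-486a and miR-486b were counted 1 time.

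MicroRNAs are short RNAs that are cut from hairpin precursors and loaded into Argonaute proteins. A loaded microRNA finds messenger RNAs by pairing through its seed, the bases 2 to 8 from its 5′ end, and lowers their translation and stability. MicroRNAs with the same seed form a family because they can share targets. Each hairpin can release a strand from its 5′ side (5p) and a strand from its 3′ side (3p), and usually 1 of them is kept while the other is degraded. In whole blood most microRNA comes from red cells, which carry large amounts of miR-486 and miR-451a, with smaller parts from leukocytes, platelets and plasma.

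The mature sequences of 90 of the 103 microRNAs were found in RefSeq (GRCm38.p6), and those of the families that moved most are given 5′ to 3′ with the seed in capitals. The first group holds families with members that were lower at 15 months. Relatives that share their seed but were not called are included (miR-181c-5p, let-7a-5p and let-7f-5p), so that the shared seed and the differing bases behind it can be seen.
miR-181a-5p: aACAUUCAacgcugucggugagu
miR-181b-5p: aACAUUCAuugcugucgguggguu
miR-181d-5p: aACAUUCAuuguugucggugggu
miR-181c-5p: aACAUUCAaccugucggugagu
miR-15b-5p: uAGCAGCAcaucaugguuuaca
miR-15a-5p: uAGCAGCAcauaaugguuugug
miR-16-5p: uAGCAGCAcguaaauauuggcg
let-7d-5p: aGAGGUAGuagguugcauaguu
let-7i-5p: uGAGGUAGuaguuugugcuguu
let-7b-5p: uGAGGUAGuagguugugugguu
let-7c-5p: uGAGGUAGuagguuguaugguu
let-7g-5p: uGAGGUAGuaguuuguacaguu
let-7a-5p: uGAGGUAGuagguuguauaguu
let-7f-5p: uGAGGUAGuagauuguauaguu
miR-130b-3p: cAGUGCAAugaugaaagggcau
miR-130a-3p: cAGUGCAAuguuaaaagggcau
miR-103-3p: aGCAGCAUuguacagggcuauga
miR-107-3p: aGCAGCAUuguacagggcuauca

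The second group holds families and single microRNAs that were higher at 15 months, together with the relatives that share their seed.
miR-30a-5p: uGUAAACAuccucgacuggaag
miR-30e-5p: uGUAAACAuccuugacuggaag
miR-30c-5p: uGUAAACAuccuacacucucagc
miR-30e-3p: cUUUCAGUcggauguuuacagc
miR-30a-3p: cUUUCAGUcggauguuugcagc
miR-192-5p: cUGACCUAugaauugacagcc
miR-215-5p: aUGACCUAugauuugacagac
miR-140-3p: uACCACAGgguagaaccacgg
miR-19b-3p: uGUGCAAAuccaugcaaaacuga
miR-144-5p: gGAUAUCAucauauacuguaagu
miR-451a: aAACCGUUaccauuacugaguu

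Libraries of the 2 ages differed in composition. Counts outside miR-486 made up 13.1% ± 2.73 (SD, n = 10) of each library at 13.5 months and 7.93% ± 2.24 (SD, n = 10) at 15 months, a difference of -5.16 percentage points (two-sided permutation test with 100000 resamples, p = 6e-05). The 15-month values ran from 3.48% to 11%, and 7 of the 10 lay below the lowest 13.5-month value of 9.52%. Total counts as deposited ran from 5144097 to 21386209 at 13.5 months and from 5015970 to 9085340 at 15 months. The counts outside miR-486, on which all other microRNAs rest, had medians of 698499 and 267135. The column names carry the letter A for every 13.5-month library, B for 3 and C for 7 of the 15-month libraries. What the letters stand for is not given in the sources used here, and the letters and the ages cannot be told apart. The second principal component of the levels (28.0% of the variance) put all 15-month libraries, between -5.51 and -0.50, apart from the 13.5-month libraries, between 0.58 and 5.51. One 13.5-month library and a 15-month library with the letter B had the most extreme TMM factors, 2.52 and 0.27, and without both 54 microRNAs were called.

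**Figure D1:**
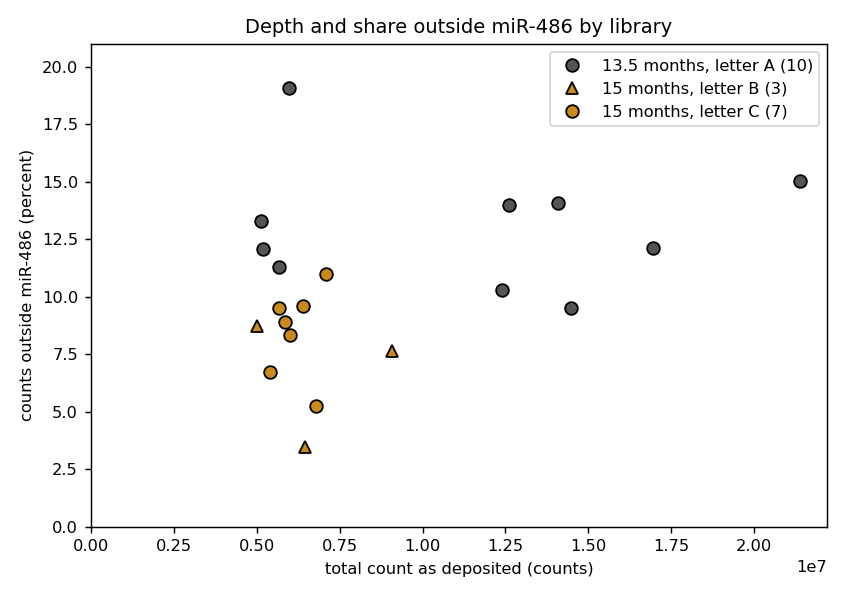
Share of counts outside miR-486 (percent, y axis) against the total count as deposited (counts, x axis) in the 20 libraries. Points are libraries, triangles mark the letter B, and 15-month libraries lie between 3.48% and 11% against 9.52% to 19.1% at 13.5 months.

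Because 1 microRNA fills most of each library, the scale on which the others are compared matters. Levels are given as log2 CPM, counts relative to the size of the library, with TMM factors, which centre each library on the bulk of its microRNAs, and a fold change is thus relative to the typical microRNA of the blood. On this scale the median log2 change of all 103 was 0.07. When the same counts were scaled by library totals alone the median was -0.79, with 1 microRNA higher and 71 lower. Then 15 of the 23 microRNAs that are reported as higher had a negative log2 change, which passed the test for miR-151-3p and miR-26a-5p, and of the 23 only miR-486a-5p was still called higher. The 27 microRNAs reported as lower were all called lower on that scale too. Since that scale moves most microRNAs downwards, this was close to fixed in advance and is no test of the falls. On either scale, fewer cells of a type and less RNA per cell cannot be told apart in bulk blood.

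At 15 months 50 of the 103 microRNAs (48.5%) differed at an adjusted p under 0.05 (edgeR's quasi-likelihood test, Benjamini-Hochberg). Of these 23 were higher (22.3%) and 27 lower (26.2%). With DESeq2 the counts were 30 higher and 26 lower, and with RLE factors 28 higher and 24 lower. Most changes were smaller than 2-fold, since 45 of the 50 had a log2 change of 1 or less in size and the median size was 0.70. In 4 microRNAs (3.88%) the levels of the 2 ages did not overlap at all, miR-30a-5p and miR-30e-3p upwards and miR-103-3p and miR-93-5p downwards. All 50 kept their sign when the 15-month group was restricted to the letter B or to the letter C, and 21 of them passed the test in both. Among libraries with a total under 10000000 counts, 4 against 10, the call was kept by 10 of the 23 higher and 19 of the 27 lower microRNAs. The libraries were tested as independent samples, although the study bled the same animals repeatedly and the labels do not tie a library to an animal.

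**Figure D2:**
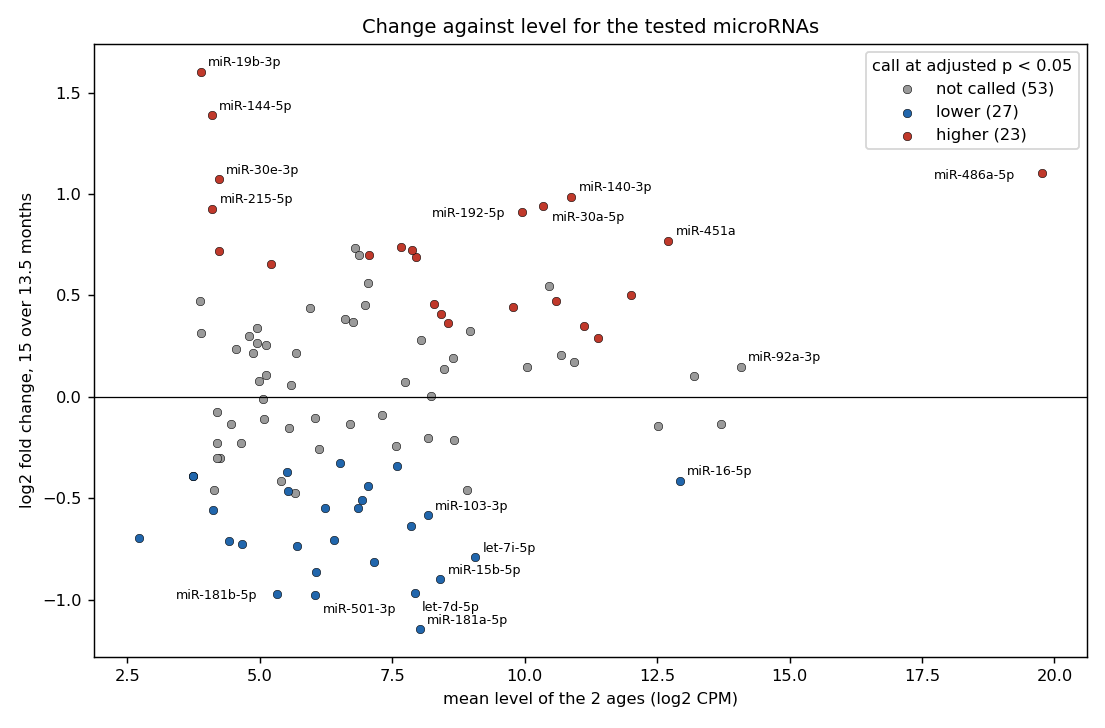
Log2 fold change from 13.5 to 15 months (y axis) against the mean level of the 2 ages (log2 CPM, x axis) for 103 microRNAs. Each point is a microRNA, coloured by its call, and the 23 higher and 27 lower ones lie at all levels on this TMM scale (1 higher and 71 lower under library totals), with miR-486a-5p alone at the right edge.

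Members of the miR-30 family were higher relative to the typical microRNA. Of its 7 tested members 5 were higher and 0 lower, against 22.3% higher and 26.2% lower among all 103, with a median log2 change of 0.41, although under library totals none of the 5 was called higher and 3 had negative changes. This family, like the other families, clusters and marker lists below, was chosen with earlier results of these data known. Such shares are a description and were not tested. The miR-30 5p strands act in differentiation and in the restraint of autophagy and epithelial plasticity in many tissues. The level of miR-30a-5p, from a hairpin at chr1:23272269-23272339 (GRCm38, + strand, in no other gene), was 9.40 to 10.30 with a median of 9.89 at 13.5 months and 10.47 to 11.09 with a median of 10.81 at 15 months. Every 15-month library thus lay above every 13.5-month library. The log2 change was 0.94 ± 0.12 (SE, adjusted p = 6.77e-06), the smallest adjusted p of all 103 microRNAs.

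The 3p strand of the miR-30e hairpin (chr4:120772606-120772697, - strand, in an intron of Nfyc) behaved likewise at a much lower level. miR-30e-3p had levels of 3.26 to 4.28 (median 3.59) at 13.5 months and 4.34 to 5.32 (median 4.71) at 15 months, again without overlap, and rose by 1.07 ± 0.16 (SE, adjusted p = 2.20e-05). Its median count was 91.5 and then 75.5, so that this microRNA is among the less deeply counted ones. Other called members were miR-30b-5p (0.70 ± 0.23), miR-30e-5p (0.41 ± 0.16) and miR-30d-5p (0.35 ± 0.11), all as log2 changes with SE. These are the 3 with negative changes under library totals, and miR-30e-5p was called in 7 of the 20 fits that left out 1 library. Among libraries with a total under 10000000 counts these 3 were not called, at 0.37, 0.06 and 0.26 (adjusted p = 0.255, 0.86 and 0.129). miR-30a-5p (0.82) and miR-30e-3p (1.01) were still called there. miR-30c-5p (0.20 ± 0.13, adjusted p = 0.192) and miR-30a-3p (0.26 ± 0.14, adjusted p = 0.127) were not called.

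Members of this family that differ by 1 base did not move in step. The paper allowed no mismatch to the precursors, so a read that spans the differing base matches only 1 of them. The log2 ratio of miR-30a-5p to miR-30e-5p within a library is free of any scaling between libraries. Such ratios were computed for 24 pairs, namely both strands of 10 hairpins, 8 pairs of relatives that differ at 1 base and 6 pairs of neighbouring hairpins. Of these 18 passed, namely 7 of the strand pairs, 5 of the relatives and all 6 neighbouring pairs. The neighbouring pairs were picked after their values were seen, so that their passing is no support, and they also enter the adjustment of the other ratios. For miR-30a-5p to miR-30e-5p the ratio was 1.20 to 1.87 at 13.5 months and 1.91 to 2.74 at 15 months, without overlap, and rose by 0.57 (permutation test, p = 1e-05, the smallest that the permutations can give, adjusted p = 6e-05 over the 24 ratios, higher than the 13.5-month mean in 10 of 10 libraries). On the opposite strand the order was turned, with the ratio of miR-30a-3p to miR-30e-3p falling from a mean of 1.13 to 0.34 (adjusted p = 0.0002).

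miR-140-3p, the abundant strand of a hairpin known from cartilage (chr8:107551244-107551313, + strand, overlapping an exon of an annotated Wwp2 transcript), was also higher. Its level was 9.89 to 10.93 (median 10.35) at 13.5 months and 10.88 to 11.74 (median 11.39) at 15 months. Only the edges of the groups touched, and the log2 change was 0.99 ± 0.14 (SE, adjusted p = 1.66e-05).

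miR-192-5p and miR-215-5p, which share the seed UGACCUA and are best known from liver, gut and kidney epithelium, rose together. miR-192-5p (chr19:6264844-6264932, + strand, in no other gene) had levels of 9.07 to 10.15 (median 9.46) at 13.5 months and 9.90 to 11.02 (median 10.26) at 15 months, a log2 change of 0.91 ± 0.18 (SE, adjusted p = 0.000242). The groups overlapped in a narrow band. Among libraries with a total under 10000000 counts, 4 against 10, the change was 0.54 (adjusted p = 0.0784). The rarer miR-215-5p (chr1:185313581-185313692, + strand) had levels of 3.43 to 4.22 and of 3.37 to 5.52 and changed by 0.93 ± 0.19 (SE, adjusted p = 0.000437), with 9 of 10 libraries above the 13.5-month mean. miR-194-5p is encoded beside both of them and was higher too, by 0.66 ± 0.17 (SE, adjusted p = 0.00326). Among libraries with a total under 10000000 counts miR-194-5p was not called (0.46, adjusted p = 0.117), while miR-215-5p was (0.72, adjusted p = 0.0482). Under library totals miR-192-5p (0.08), miR-215-5p (0.09) and miR-194-5p (-0.14) were not called (adjusted p = 0.83, 0.80 and 0.70).

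The list of liver markers held 4 microRNAs, and miR-215-5p was not on it. Of the 4, 2 were tested, miR-192-5p and miR-194-5p. Both were called higher on the TMM scale, against 22.3% of all 103, and neither was under library totals. miR-122, which defines hepatocytes, had 0 or 1 count in each library for either strand. The liver list summed to 5650 to 12770 CPM over the counts outside miR-486 at 13.5 months and to 7800 to 19920 at 15 months. As CPM of all counts it ran from 674 to 2314 (median 964) at 13.5 months and from 272 to 2030 (median 1204) at 15 months.

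The red-cell list held 7 microRNAs, of which 6 were tested, 3 were higher, 1 was lower and 2 did not pass. Among all 103 microRNAs 48.5% were called, 22.3% higher and 26.2% lower. miR-486a-5p, the dominant red-cell microRNA, took 86.9% of the counts at 13.5 months and 92.1% at 15 months. Its level was 18.29 to 19.70 at the earlier and 19.56 to 21.75 at the later age, with a log2 change of 1.10 ± 0.25 (SE, adjusted p = 0.00145). The groups overlapped by a small margin, and all 10 later libraries lay above the earlier mean.

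miR-144-5p and miR-451a are made from 1 erythroid transcript, at chr11:78073005-78073070 and chr11:78073170-78073241 (+ strand, in no other gene). miR-144-5p had levels of 2.498 to 5.54 (median 2.96) at 13.5 months and 3.99 to 5.43 (median 5.08) at 15 months. A single 13.5-month library reached above all 15-month libraries, and the log2 change was 1.39 ± 0.35 (SE, adjusted p = 0.00267), but 0.59 (adjusted p = 0.237) among libraries with a total under 10000000 counts. For miR-451a, needed for red-cell maturation, the levels were 11.77 to 13.33 (median 12.29) and 11.53 to 14.00 (median 13.25), and the log2 change was 0.77 ± 0.30 (SE, adjusted p = 0.041). This call was kept in only 7 of the 20 fits without 1 library, at log2 changes of 0.55 to 0.88, and the value was -0.06 under library totals. Among libraries with a total under 10000000 counts the value was 0.09 (adjusted p = 0.872). The ratio of miR-144-5p to miR-451a, a pair picked after its values were seen, rose by 1.01 on the log2 scale (permutation test, adjusted p = 0.00622).

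Other red-cell microRNAs did not follow. miR-16-5p, abundant in red cells and a brake on the cell cycle, was lower, with a log2 change of -0.41 ± 0.15 (SE, adjusted p = 0.0227), with levels of 12.68 to 13.55 at 13.5 months and 11.79 to 13.14 at 15 months. miR-92a-3p (0.15 ± 0.33, adjusted p = 0.70) and miR-486a-3p (0.56 ± 0.57, adjusted p = 0.41) had wide errors. Without miR-486 the red-cell list summed to 288200 to 477300 CPM over the counts outside miR-486 at 13.5 months and to 339300 to 391900 at 15 months. The part of a changed blood cell composition in these results was not tested.

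Of the 3 general leukocyte markers 2 were tested, miR-142a-5p and miR-21a-5p, and both were higher, against 22.3% of all 103. The log2 change of miR-142a-5p was 0.50 ± 0.14 (SE, adjusted p = 0.00554), and that of miR-21a-5p was 0.72 ± 0.24 at an adjusted p of 0.0174. With library totals alone both had negative log2 changes. Among libraries with a total under 10000000 counts neither was called, at 0.18 (adjusted p = 0.338) and 0.47 (adjusted p = 0.295). For miR-21a-5p, a microRNA induced in inflammation, the groups overlapped widely, at 7.06 to 8.16 and 6.61 to 9.12. The myeloid marker miR-223-3p (0.34 ± 0.20, adjusted p = 0.158) and the lymphocyte markers miR-150-5p (-0.46 ± 0.27, adjusted p = 0.153) and miR-342-3p (0.11 ± 0.20, adjusted p = 0.643) did not pass the test. None of the platelet and endothelial, muscle, epithelial or neuronal markers had enough reads to be tested. The muscle and brain markers miR-1a-3p, miR-206-3p, miR-9-5p and miR-124-3p had at most 2 counts in a library, while muscle miR-133a-3p had 2 to 151 at 13.5 months and 0 to 32 at 15 months. These are raw counts at unlike depth. As CPM over the counts outside miR-486 the muscle list had medians of 44.3 at 13.5 months and 45.7 at 15 months.

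**Figure D3:**
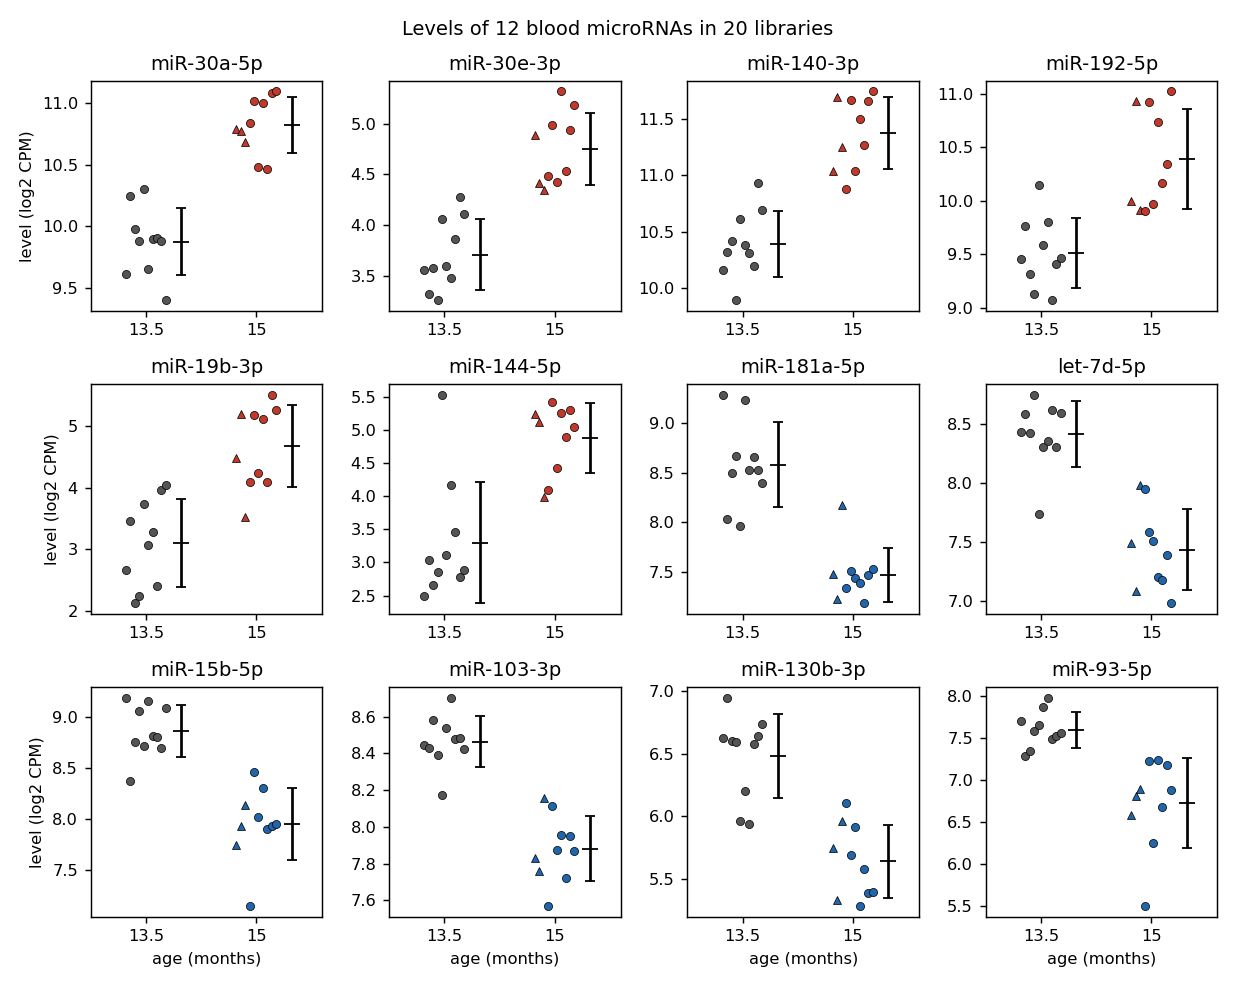
Levels (log2 CPM with TMM factors, y axis of each panel) of 12 microRNAs in the 10 libraries at 13.5 months and the 10 at 15 months, with the mean and SD beside each group. Triangles mark libraries with the letter B, red panels are called higher and blue panels lower on the TMM scale (none of the 6 red ones is called higher under library totals), and miR-30a-5p, miR-30e-3p, miR-103-3p and miR-93-5p show no overlap.

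The fall of greatest size was in the miR-181 family, which tunes T-cell receptor signalling and lymphocyte development. In this family, also chosen with earlier results known, 3 of the 4 tested members were lower, against 26.2% of all 103, with a family median of -0.84. miR-181a-5p, encoded at chr1:137966455-137966541 and chr2:38852735-38852810, had levels of 7.96 to 9.29 (median 8.53) at 13.5 months and 7.19 to 8.18 (median 7.45) at 15 months. A single 15-month library entered the earlier range, and the log2 change was -1.14 ± 0.16 (SE, adjusted p = 1.66e-05). miR-181b-5p (-0.97 ± 0.18, adjusted p = 0.000217) and miR-181d-5p (-0.71 ± 0.17, adjusted p = 0.00198) followed.

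miR-181c-5p was the exception in this family, with a log2 change of 0.06 ± 0.20 (SE, adjusted p = 0.791). It lies beside miR-181d-5p in an intron of Nanos3 (chr8:84178924-84178945 against chr8:84178716-84178787, - strand). The log2 ratio of miR-181c-5p to miR-181d-5p rose from 0.83 ± 0.43 to 1.51 ± 0.64 (mean and SD, n = 10 each) and did so by 0.68 (permutation test, adjusted p = 0.0216). This pair was picked after its values were seen. The sequence of miR-181c-5p, given above, holds the same seed.

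The let-7 family, which holds cells in the differentiated state, was lower in 5 of its 7 tested 5p members and higher in 0, against 26.2% and 22.3% of all 103, with a median log2 change of -0.64. It too was chosen with earlier results known. let-7d-5p (chr13:48536012-48536114, - strand) had levels of 7.74 to 8.75 (median 8.43) at 13.5 months and 6.98 to 7.98 (median 7.44) at 15 months. The groups overlapped only through the lowest 13.5-month library, and the log2 change was -0.97 ± 0.14 (SE, adjusted p = 1.75e-05). let-7i-5p (-0.79 ± 0.13), let-7b-5p (-0.72 ± 0.18), let-7c-5p (-0.64 ± 0.16) and let-7g-5p (-0.55 ± 0.18) were lower at adjusted p of 3.35e-05, 0.00259, 0.00246 and 0.0144.

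let-7a-5p (-0.20 ± 0.13, adjusted p = 0.191) and let-7f-5p (0.14 ± 0.17, adjusted p = 0.491) were not called. Both have a copy beside let-7d on chromosome 13. The log2 ratio of let-7d-5p to let-7f-5p fell from 0.02 to -1.14 in the mean (permutation test, adjusted p = 0.00105, below the 13.5-month mean in 10 of 10 libraries). This pair of neighbours was also picked after its values were seen. Members of this family differ from each other at as little as 1 base. If no mismatch was allowed, as the paper states, only reads that do not span that base may have been assigned to more than 1 of them. Of the pairs 1 base apart, let-7c-5p fell against let-7a-5p by 0.45 on the log2 scale (adjusted p = 0.00184), while the ratio of let-7c-5p to let-7b-5p changed by 0.04 (adjusted p = 0.762). The row named let-7j, whose seed GAGGUAU ends in another base, was lower as well, with a log2 change of -0.74 ± 0.15 (SE, adjusted p = 0.00051). Behind the seed its sequence is that of let-7i-5p with a longer 3′ end. Its median counts were 495 at 13.5 months and 99.5 at 15 months, against 5201 and 1042.5 for let-7i-5p. Whether the row holds reads of let-7i-5p was not tested, so its fall may not be separate from that of let-7i-5p.

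miR-15b-5p, miR-15a-5p and miR-16-5p share a seed and repress cyclins and the survival factor Bcl2. All 3, chosen as a family with earlier results known, were lower, against 26.2% of all 103. miR-15b-5p (chr3:69009772-69009835, + strand, in an intron of Smc4) had levels of 8.37 to 9.19 (median 8.81) at 13.5 months and 7.14 to 8.46 (median 7.94) at 15 months. The ranges met only at their edges, and the log2 change was -0.90 ± 0.14 (SE, adjusted p = 2.20e-05). miR-15a-5p changed by -0.71 ± 0.19 (SE, adjusted p = 0.00542), and all 10 of its later libraries lay below the earlier mean.

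miR-103-3p and miR-107-3p, from introns of the pantothenate kinase genes Pank3, Pank2 and Pank1 and known as regulators of insulin sensitivity, were both lower. miR-103-3p had levels of 8.17 to 8.70 (median 8.46) at 13.5 months and 7.57 to 8.16 (median 7.87) at 15 months, without overlap, and a log2 change of -0.58 ± 0.09 (SE, adjusted p = 2.96e-05). The difference was modest in size, but the spread within each age was small. miR-107-3p, 1 base apart from it, changed by -0.44 ± 0.11 (SE, adjusted p = 0.00198), and their ratio did not pass (-0.15, permutation test, adjusted p = 0.0954).

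miR-130b-3p and miR-130a-3p, also a seed family, were lower. The log2 change was -0.86 ± 0.15 (SE, adjusted p = 6.60e-05) for the first, and that of miR-130a-3p was -0.37 ± 0.11 at an adjusted p of 0.0101. miR-130b-3p had levels of 5.94 to 6.95 (median 6.60) and of 5.28 to 6.10 (median 5.64). miR-501-3p, from an intron of Clcn5 on the X chromosome (chrX:7241243-7241351, - strand), was lower, with a log2 change of -0.98 ± 0.17 (SE, adjusted p = 8.87e-05), with levels of 5.74 to 6.99 and 4.83 to 6.01. In all 3 the ranges overlapped in part. All 10 later libraries lay below the earlier mean for miR-130b-3p and miR-501-3p, and 9 of 10 did for miR-130a-3p.

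Across the sequences found, 40 microRNAs fell into 15 groups that shared a seed. In 10 of these groups at least 1 member was called, in 7 groups at least 2, and 0 groups held calls in both directions. Among all 103 microRNAs 48.5% were called, and whether members of a group moved together was not tested. The 19 higher sequences held 17 different seeds and the 25 lower ones 15. The median GC content was 40.9% in the higher, 45.5% in the lower and 50.0% in the microRNAs not called, with a median length of 22 bases in each. A first base of U was found in 10 of 19 higher, 9 of 25 lower and 23 of 46 others. Over the 90 sequences the log2 change had a correlation of -0.02 with GC content and -0.04 with length, given as a description, since members of a family are not independent.

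**Figure D4:**
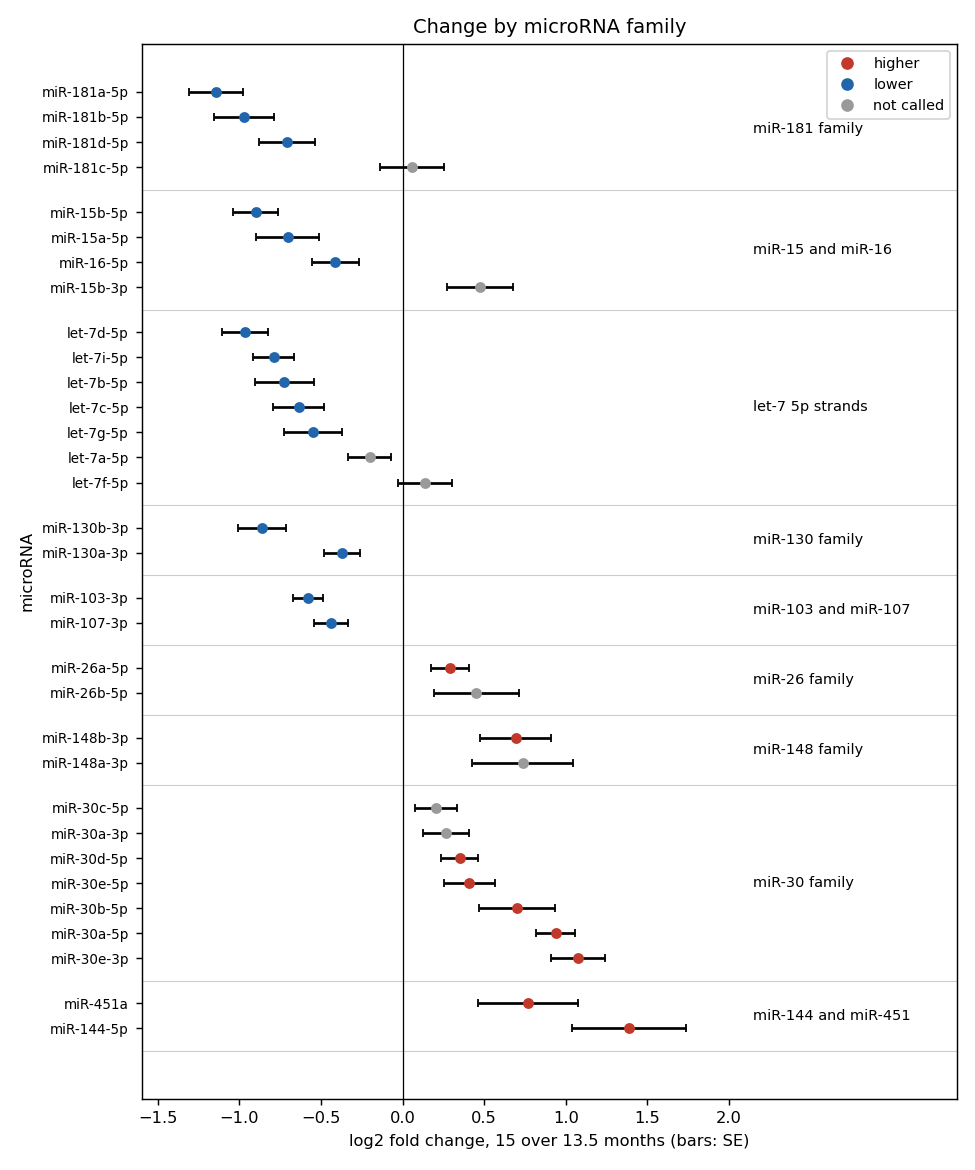
Log2 fold change from 13.5 to 15 months with its SE (x axis) for the tested members of 9 families or clusters (y axis). Blue and red points are called lower and higher on the TMM scale (library totals give other signs for 15 of the 23 higher microRNAs) and grey points are not called, and no family shown except miR-15 and miR-16 (with miR-15b-3p), let-7 (let-7f-5p) and miR-181 (miR-181c-5p) has members on both sides of 0.

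Clusters are groups of microRNAs whose members are cut from 1 primary transcript. From the miR-17-92 cluster on chromosome 14, miR-19b-3p rose by a log2 change of 1.602 ± 0.29 (SE, adjusted p = 0.000117), the largest rise of all, while miR-17-3p was lower, at -0.56 ± 0.16 (SE, adjusted p = 0.0057). miR-19b-3p, which is also encoded on the X chromosome, had levels of 2.12 to 4.05 (median 3.18) and 3.52 to 5.51 (median 4.80). The log2 ratio of miR-17-3p to miR-19b-3p was 0.42 to 2.61 at 13.5 months and -1.44 to 0.35 at 15 months, without overlap (difference -2.19, permutation test, adjusted p = 6e-05). Both are among the less abundant rows, with median counts of 53 and 80.5 for miR-19b-3p and of 186.5 and 39.5 for miR-17-3p.

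In the related miR-106b-25 cluster (chromosome 5, within Mcm7) 5 rows were tested, 1 was lower and 0 were higher, against 26.2% and 22.3% of all 103. miR-93-5p had levels of 7.28 to 7.98 at 13.5 months and 5.49 to 7.24 at 15 months, without overlap, and a log2 change of -0.81 ± 0.17 (SE, adjusted p = 0.00051). Its neighbour miR-25-3p, a far more abundant microRNA, gave 0.11 ± 0.11 (SE, adjusted p = 0.412). Within libraries the ratio of miR-93-5p to miR-25-3p fell by 0.995 on the log2 scale (permutation test, adjusted p = 0.000192, below the earlier mean in 10 of 10 libraries). Of the cluster of miR-191 and miR-425 on chromosome 9, miR-425-5p was higher by 0.46 ± 0.11 (SE, adjusted p = 0.00158) and miR-191-5p, the most abundant of these, gave -0.13 ± 0.15 (SE, adjusted p = 0.445). In these 2 clusters, as in that of miR-17, the neighbours named here changed by different amounts. Their pairs were picked after the values were seen, so the adjusted p of their ratios do not test neighbours in general.

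The 2 strands of a hairpin are made in equal number, and their ratio within a library does not depend on the scaling. Both strands were tested for 10 hairpins. Of these 1 had both strands called (miR-30e, both higher), 8 had 1 strand called and 1 had none (miR-25). Among all 103 microRNAs 48.5% were called. The ratio of the strands passed the permutation test for 7 of the 10.

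The largest shifts were in miR-15b and let-7d. The log2 ratio of let-7d-5p to let-7d-3p was 1.17 to 2.62 at 13.5 months and 0.03 to 1.03 at 15 months, and every 15-month library lay below every 13.5-month library. It fell by 1.29 on the log2 scale (adjusted p = 6e-05). For miR-15b the ratio of 5p to 3p fell by 1.38 (adjusted p = 0.000274), from 4.32 to 6.24 down to 3.24 to 4.67. Taken alone, let-7d-3p gave a log2 change of 0.37 ± 0.22 (SE, adjusted p = 0.161). For miR-15b-3p it was 0.47 ± 0.20 at an adjusted p of 0.0562.

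For miR-130b it was the more abundant 3p strand that was lower, while miR-130b-5p gave 0.08 ± 0.20 (SE, adjusted p = 0.732). The ratio of 5p to 3p was -2.13 to -1.10 at 13.5 months and -1.01 to -0.02 at 15 months, without overlap, and rose by 0.94 (permutation test, adjusted p = 6e-05). In miR-93 the 5p strand fell against the 3p strand by 0.86 (permutation test, adjusted p = 0.0166), and in miR-151 by 0.43 (permutation test, adjusted p = 0.0236). The hairpins of miR-30a and miR-30e went opposite ways, with 5p over 3p changing by 0.67 and -0.70 (permutation test, adjusted p = 0.00192 for each). The strand ratios of miR-486a (1.16, adjusted p = 0.0704), miR-423 (-0.47, adjusted p = 0.0954) and miR-25 (0.23, adjusted p = 0.438) did not pass the same permutation test.

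**Figure D5:**
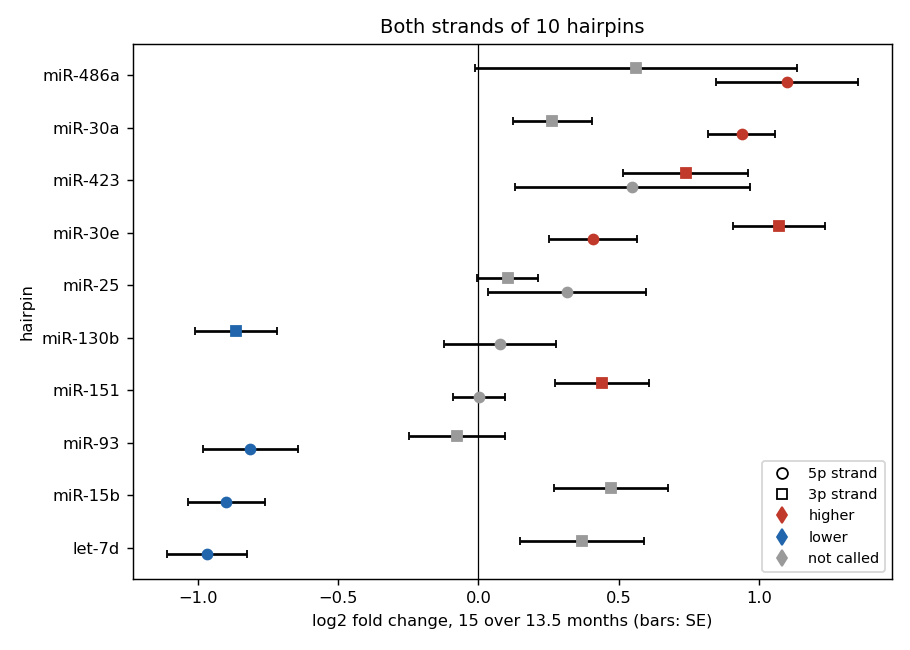
Log2 fold change from 13.5 to 15 months with its SE (x axis) for the 5p strand (circles) and the 3p strand (squares) of 10 hairpins (y axis). Colours give the call, and in let-7d, miR-15b and miR-130b the strands lie on opposite sides of 0.

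Of the 7 microRNAs that the study singled out by memory performance, partly on these libraries, 1 was higher, 3 were lower and 3 did not pass. The called ones were miR-192-5p, miR-181a-5p, let-7b-5p and miR-130b-3p. The count is not independent of the study's choice, and it stands near the 48.5% called among all 103. miR-148a-3p had levels of 5.56 to 7.63 and 5.99 to 8.32 and a log2 change of 0.74 ± 0.31 (SE, adjusted p = 0.052), close to the threshold, and it passed with DESeq2 (adjusted p = 0.0165). Its seed relative miR-148b-3p was higher by 0.69 ± 0.22 (SE, adjusted p = 0.0129). miR-146a-5p, a feedback inhibitor of inflammatory signalling, gave -0.47 ± 0.29 (SE, adjusted p = 0.175) with levels of 5.12 to 6.76 and 4.14 to 6.35.

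After miR-486a-5p, the largest mean shares of the counts were held by miR-92a-3p (1.94%), miR-191-5p (1.44%), miR-25-3p (1.01%) and miR-16-5p (0.940%). Of these 5, miR-486a-5p and miR-16-5p were called. The remaining called microRNAs were higher or lower by moderate amounts. Of those higher, miR-361-5p (0.72 ± 0.17), miR-423-3p (0.74 ± 0.22), miR-186-5p (0.47 ± 0.13), miR-151-3p (0.44 ± 0.17), miR-27b-3p (0.36 ± 0.12) and miR-26a-5p (0.29 ± 0.12) differed on the log2 scale by the values given with their SE. The call of miR-26a-5p was kept in 6 of the 20 fits that left out 1 library, that of miR-27b-3p in 15 and that of miR-151-3p in 17. With the letter B alone the log2 change of miR-27b-3p was 0.05 (adjusted p = 0.855). Of those lower, miR-3969 (-0.70 ± 0.24), miR-320-3p (-0.55 ± 0.17), miR-1198-5p (-0.51 ± 0.17), miR-222-3p (-0.47 ± 0.14), miR-421-3p (-0.34 ± 0.11) and miR-652-3p (-0.32 ± 0.13) had the values given, and the call of miR-652-3p was kept in 11 of the 20 fits. miR-3969 had only 38 to 95 counts at 13.5 months and 1 to 22 at 15 months, and passed the filter through the other ages. Among libraries with a total under 10000000 counts, miR-320-3p (-0.45, adjusted p = 0.187), miR-1198-5p (-0.18, 0.504), miR-222-3p (-0.54, 0.059) and miR-652-3p (-0.31, 0.17) were not called, while miR-3969 and miR-421-3p were. The higher and lower microRNAs listed here were named after their values were seen. Identical counts stood in the rows for miR-374b-5p and for miR-374c-5p, both lower (-0.39 ± 0.15) and called in 15 of the 20 fits.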

How the data were processed

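Small RNA of total blood was sequenced by the authors as single-end reads. As deposited, the values are raw read counts per mature microRNA of miRBase. For these the authors trimmed adapters, mapped reads to mm10 and counted them with miRDeep2 tools, summing genomic copies. The paper allowed no mismatch to the precursors. Reads that match more than 1 microRNA may still be entered more than once. The submitters' processing notes also name FastQC 0.11.5. A second deposited table, of normalized values, was not used. Ages came from the column names, and 0 columns were left without one. MicroRNAs with more than 100 reads in at least 20 of 40 libraries were fitted over the 20 libraries with edgeR 4.0.16 (R 4.3.3, TMM factors, quasi-likelihood test, threshold 0.05). SEs are the absolute log2 change over the square root of F, and levels are log2 CPM with a prior count of 2. SEs cover the spread between libraries and counting error of amplified reads without molecular identifiers. Ratios used a pseudocount of 1 and two-sided permutation tests with 100000 resamples (smallest possible p 1e-05, Benjamini-Hochberg over 24). Positions and sequences are RefSeq's (GRCm38.p6) and overlapping genes GENCODE M21's. No pair of libraries of 1 age was a duplicate (over 90 pairs the chi-square per degree of freedom was at least 19.6). The text names, among called microRNAs, the 10 largest rises and falls and the 5 smallest p, the study's 7, the 5 highest shares, and the tested members of marker, family, cluster and strand lists. Members and lists were chosen with earlier results of these data known. DESeq2 1.42.0, limma 3.58.1 and other filters, scalings, hidden factors and libraries served as alternatives. The fit was tested on simulated counts.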

Additional observations from a re-analysis of the deposited data

Results flagged for a closer look

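In 17 of the 136 groups of 10 libraries examined, 1 library stood apart from the other 9 by Dixon's criterion, which chance alone meets in about 1 of 20 groups. The 15-month library with the lowest TMM factor was high for miR-181a-5p (level 8.18), let-7c-5p (8.46), miR-107-3p (7.30) and miR-191-5p (14.5). The 13.5-month library with the highest TMM factor was low for miR-486a-5p (18.3), miR-486a-3p (4.71), miR-423-3p (6.17), miR-150-5p (7.11) and miR-191-5p (13.0). The 15-month library with the next lowest TMM factor was low for miR-15a-5p (4.63), miR-17-3p (2.66) and miR-16-5p (11.8). At 13.5 months, 3 other libraries were low for let-7d-5p (7.74), low for let-7a-5p (7.43) and high for miR-182-5p (7.21). At 15 months, miR-25-3p was low in a further library (12.9), and another had a total of 9085340 counts, apart from the rest. What these libraries have in common was not tested.

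miR-221-3p, the cluster neighbour of miR-222-3p, did not enter the fit because it had more than 100 reads in only 19 of the 40 libraries. At 13.5 months its median count was 165.5 (range 58 to 487), with more than 100 reads in 9 of 10 libraries, and at 15 months it was 35 (range 14 to 89), with 0 of 10. As CPM over the counts outside miR-486 the medians were 230.7 and 140.3. In a fit with more than 1 read in 20 of 40 libraries as the filter, its log2 change was -0.78 ± 0.22 (SE, adjusted p = 0.0109, edgeR).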

How the results depend on the processing

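Library totals alone gave 1 higher and 71 lower microRNAs and turned the sign of let-7f-5p (-0.73), miR-106b-3p (-0.67), miR-142a-5p (-0.35), miR-148b-3p (-0.13), miR-181c-5p (-0.79), miR-194-5p (-0.14), miR-21a-5p (-0.029), miR-25-5p (-0.62), miR-25-3p (-0.71), miR-26a-5p (-0.50), miR-27b-3p (-0.44), miR-30b-5p (-0.11), miR-30c-5p (-0.67), miR-30d-5p (-0.47), miR-30e-5p (-0.41), miR-342-3p (-0.67), miR-423-3p (-0.20), miR-425-5p (-0.35), miR-451a (-0.057) and miR-92a-3p (-0.77). A filter of more than 1 read called 79 of 343 (37 higher, 42 lower), 2 hidden factors called 37 higher, and libraries under 10000000 counts called 33 (12 higher). Of the alternatives added after seeing the data, the letter B alone (3 libraries) called 24 (9 higher, 15 lower) and the letter C alone 49 (19 higher, 30 lower). Leaving out 1 library gave 46 to 58 calls, 16 to 25 higher and 24 to 36 lower, and 39 of the 50 stayed called in each of the 20 fits. The split of calls was 1.39% higher with library totals alone. In the other fits it reached 53.9% higher with RLE factors and 34.8% without either of 2 libraries of 13.5 months, against 46% in the reported fit. The share outside miR-486 fell under every alternative run (by 2.88 to 5.55 percentage points). Among the ratios, only that of let-7c-5p to let-7b-5p turned sign, with a pseudocount of 10 (-0.12) and without 1 library (-0.0397 to 0.109). The ratios of miR-10b-5p to miR-10a-5p and of let-7a-5p to let-7f-5p passed in 12 and 13 of the 20 fits. The cause of these changes was not tested. No library exceeded the connectivity limit of 2.5, so that removal was not run. The columns carry no replicate number of the labels. With a replicate block for the number that column names share between ages, 52 were called (26 higher, 26 lower), among them miR-148a-3p (adjusted p = 0.00532) and miR-146a-5p (adjusted p = 0.0339), which were not called in the reported fit; same-numbered libraries correlated at -0.37 to 0.78 and 3 of 10 best with their own number, so the numbers were not taken as pairs. Below about 100 counts, as for miR-19b-3p at 13.5 months, counting error limits the levels.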
